A study of Homo sapiens with 6 samples.

Results

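DPF3, one of the subunits that BRG1-associated factor (BAF) chromatin remodeling complexes exchange between cell lineages, was almost silent in COV434 cells carrying a control plasmid and was measurable in every sample transfected with BRG1. The other genes that encode alternative subunits at the same positions of the complex differed far less. The set described here holds 9 genes of the 19899 in the table, namely DPF1, DPF2, DPF3 and PHF10 at one position, ACTL6A and ACTL6B at another, and SMARCD1, SMARCD2 and SMARCD3 at the third. DPF3 was chosen by its call in the contrast of BRG1 with Control and the other 8 genes were added as the paralogs that share its position or its lineage exchange. For this reason their values in that contrast are given as a description, with no test.

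COV434 is an established cell line of SCCOHT, a small cell ovarian carcinoma named for the high blood calcium of patients, which lacks BRG1, the ATPase of SWI/SNF (BAF) complexes encoded by SMARCA4. Cells received pCDNA3-neo (Control, n = 3) or PBJ5-BRG1 (BRG1, n = 3), in both groups together with pBABE-puro, which confers puromycin resistance. From 24 hours after transfection they were held on puromycin at 2 to 3 µg/ml for 3 days and were then collected, so each sample is a selected pool of transiently transfected cells of 1 line. Libraries of poly(A) RNA, each made from 500 ng of total RNA, were sequenced as unstranded pairs of 78 bases, and the labels number the samples of each group 1 to 3 as biological replicates.

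BAF complexes are built around an ATPase with a core that all cells share and several positions that can be filled by any of a small family of paralogs. DPF1, DPF2 and DPF3 carry paired PHD fingers that bind modified histone tails, and PHF10 takes the same place in the polybromo form of the complex (PBAF). In developing neurons ACTL6A gives way to ACTL6B, and DPF2 and PHF10 give way to DPF1 and DPF3. DPF3 and SMARCD3 are also known as subunits of heart and skeletal muscle.

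The proximal promoters of the DPF paralogs are shown because these neighbours in 1 family had unlike levels, and DPF3 is the member on which the comparison turns. Each run holds the 250 bases upstream of a RefSeq transcript start (GRCh38.p14), read 5′ to 3′ on the strand of the gene, and capitals mark matches to the CCAAT box (CCAAT) or the GC box (GGGCGG) on either strand. DPF3 has a pair of such starts, and both lie on the minus strand, at chr14:72894102-72894351 for the upstream start and chr14:72892650-72892899 for the other. The window of DPF2, the family's most abundant member, was chr11:65333602-65333851 on the plus strand, and that of DPF1 was chr19:38229696-38229945 on the minus strand.
DPF3, upstream start: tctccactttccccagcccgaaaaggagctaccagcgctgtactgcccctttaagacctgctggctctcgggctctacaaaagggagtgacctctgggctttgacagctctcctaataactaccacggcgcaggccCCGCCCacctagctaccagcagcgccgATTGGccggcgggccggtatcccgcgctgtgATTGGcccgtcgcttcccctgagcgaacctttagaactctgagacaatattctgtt
DPF3, other start: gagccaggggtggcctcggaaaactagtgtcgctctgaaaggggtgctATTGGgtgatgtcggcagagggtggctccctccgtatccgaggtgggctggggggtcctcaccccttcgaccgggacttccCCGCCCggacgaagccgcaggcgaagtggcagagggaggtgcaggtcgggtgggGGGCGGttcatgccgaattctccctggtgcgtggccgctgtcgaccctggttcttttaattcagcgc
DPF2: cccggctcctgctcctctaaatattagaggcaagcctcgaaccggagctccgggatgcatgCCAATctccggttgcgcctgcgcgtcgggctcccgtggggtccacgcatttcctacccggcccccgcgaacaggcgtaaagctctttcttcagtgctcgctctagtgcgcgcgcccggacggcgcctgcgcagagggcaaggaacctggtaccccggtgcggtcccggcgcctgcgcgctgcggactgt
DPF1: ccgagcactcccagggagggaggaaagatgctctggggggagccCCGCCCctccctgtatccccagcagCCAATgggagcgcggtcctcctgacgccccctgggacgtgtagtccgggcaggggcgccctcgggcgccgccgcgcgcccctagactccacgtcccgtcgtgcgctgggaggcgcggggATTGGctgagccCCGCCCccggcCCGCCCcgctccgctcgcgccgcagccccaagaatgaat

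RefSeq gave 13 such windows for 8 of the 9 genes. A CCAAT box was found in 5 of the 13 windows, which were those of DPF1, DPF2, DPF3 (both) and ACTL6B, and 32% of all 35116 windows of this length held one. A GC box was found in 7 windows, against 42.6% of all windows. TGACTCA, the site of AP-1, was in none of the 13 windows and in 4.2% of all windows, TATAAA was in none and in 10.7%, and the E-box CACGTG was in none and in 6.34%. The windows held 56.4% to 86.4% G and C bases, beside a median of 58% over all windows. These are counts of letters in a short window and say nothing of what binds there.

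SMARCA4, the transfected gene, checked the labels. Its normalised count was 1439, 1676 and 1538 in Control samples 1 to 3 and 108650, 79075 and 78589 in BRG1 samples 1 to 3, with plasmid transcripts included (log2 fold change 5.84, SE 0.18). SMARCA2, which encodes the other ATPase, stayed low in both groups, with 23.15, 22.28 and 3.79 in Control and 30.47, 35.72 and 5.97 in BRG1 samples (DESeq2 adjusted p = 0.831). Libraries held 29699741 to 63613710 estimated counts, with BRG1 sample 3 the smallest and BRG1 sample 1 the largest. Over all genes tested with DESeq2, 11% were called higher with BRG1 and 1.84% lower at an adjusted p under 0.05.

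Of the 9 subunit genes 1, DPF3, was called higher and none was called lower, beside those background shares of 11% and 1.84%. With the quasi-likelihood test of edgeR, which kept 8 of the 9 genes, the counts were also 1 and 0, where 9.57% of all genes were called higher and 1.02% lower. With the replicate number as a block in DESeq2, ACTL6A and SMARCD3 were also called lower, so that 1 gene was called higher and 2 lower, beside 13.4% and 6.61% of all genes. The 2 groups of samples did not overlap for 3 genes. DPF3 was higher in every BRG1 sample than in every Control sample, as were 16.7% of all genes, while PHF10 and ACTL6B were lower in every BRG1 sample, as were 9.92% of all genes. Because the rule used this contrast, nothing is read from these counts. Leaving out DPF3, the log2 fold changes of the other 8 genes lay between -1.0 and 0.13.

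**Figure D1:**
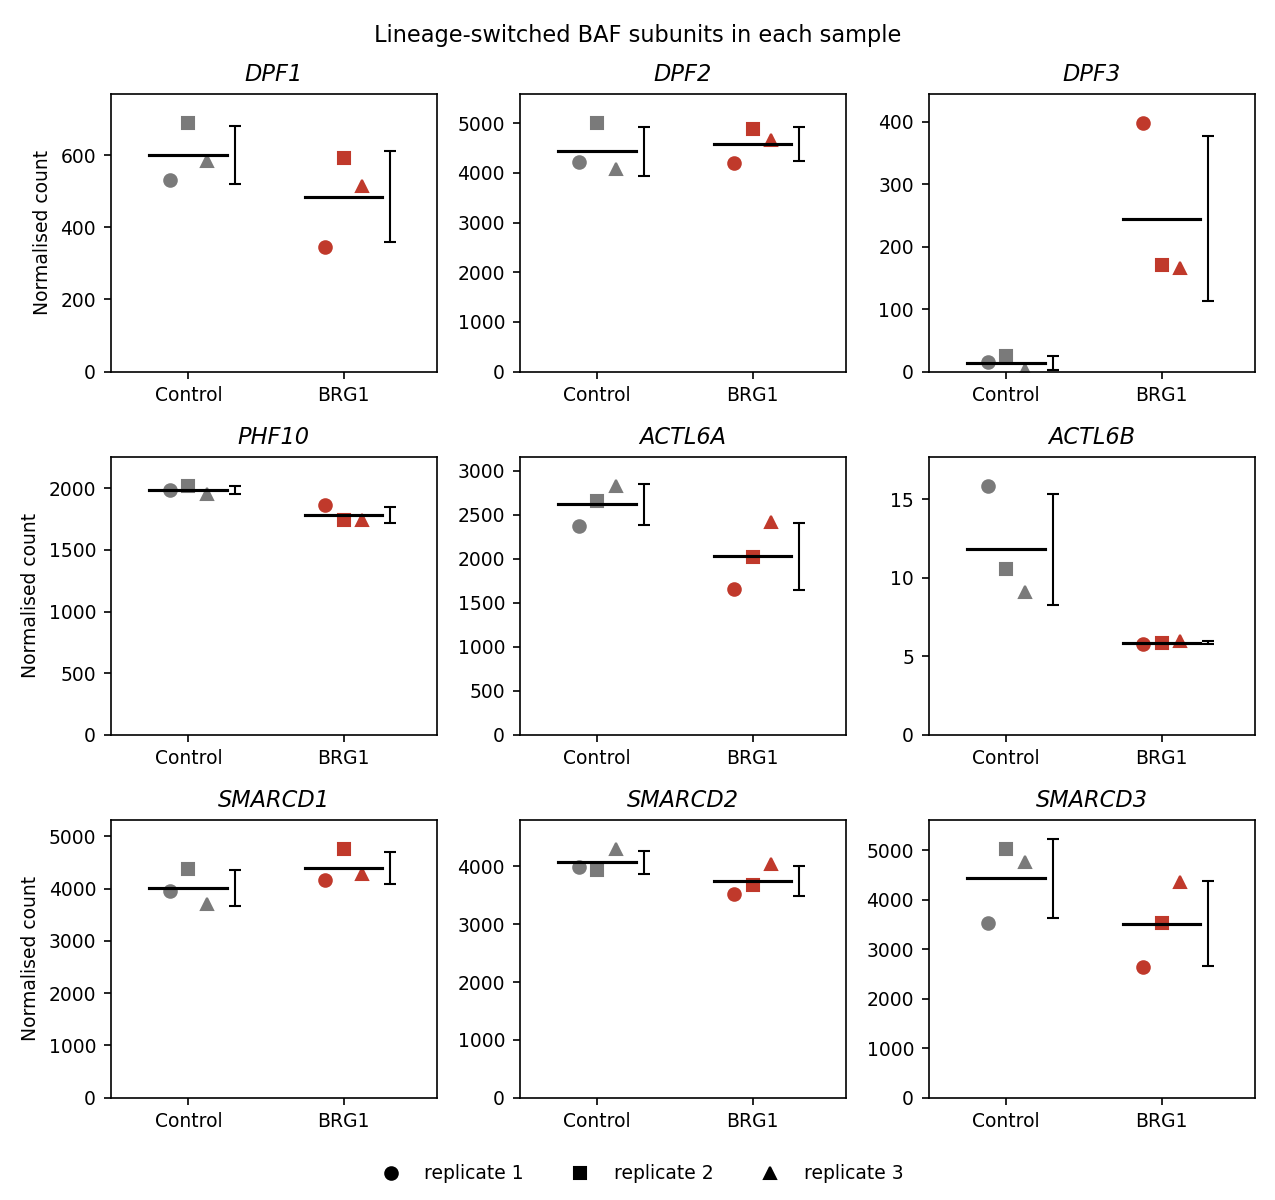
Normalised counts (vertical axes, each from 0) of the 9 subunit genes in 3 Control samples (grey) and 3 BRG1 samples (red), with marker shape giving the replicate number, the horizontal line the mean and the bar beside it the SD. DPF3 lies between 2.27 and 24.6 in Control and between 166 and 398 in BRG1 samples, while DPF2, SMARCD1 and SMARCD2 overlap between groups.

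Among the DPF/PHF10 genes, DPF3 is a reader of acetylated and methylated histone tails that is needed for heart and skeletal muscle development. The gene spans 285.1 kb on chromosome 14 (72609034 to 72894101, minus strand, GRCh38), and its exons overlap no other annotated gene. Its normalised count was 15.84, 24.62 and 2.27 in Control samples 1 to 3 and 397.5, 171.1 and 165.7 in BRG1 samples 1 to 3. Every BRG1 sample lay above every Control sample, and the highest and lowest values within each group differed by more than 2-fold. The means were 14.2 ± 11.3 and 245 ± 132 (SD, n = 3 each). The DESeq2 log2 fold change was 4.14 with an SE of 0.66, and its 95% interval ran from 7.18-fold to 43.4-fold.

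These DPF3 values rest on few counts in Control samples. The rounded estimated counts were 13, 21 and 3 in Control and 548, 206 and 111 in BRG1 samples. Within replicate numbers 1 to 3 the fold was 25.1, 6.95 and 73, with 95% intervals for counting error only (exact binomial) of 14.6 to 47.4, 4.43 to 11.5 and 24.3 to 359. These intervals treat the rounded estimates as raw counts and leave out the spread between separate samples. The last fold has a denominator of 3 counts in Control sample 3. Over 14 fits, which include those that leave out 1 sample each, the log2 fold change of DPF3 ranged from 3.60 to 4.84. DPF3 was called higher in all 14, but these fits reuse the contrast by which it was chosen. The calls are therefore no separate support. The highest of these values, 4.84, was the one without Control sample 2. By size of log2 fold change it ranked 729 of the 16002 genes tested, so that 4.55% of them had a larger value.

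DPF2, the widely expressed member and the usual occupant of this position, had normalised counts of 4226, 5000 and 4086 in Control and 4209, 4885 and 4670 in BRG1 samples. The groups overlapped, the log2 fold change was 0.05 (SE 0.15), and the 95% interval of the fold was 0.844 to 1.27. A change of DPF2 beyond about these limits in either direction was therefore outside the interval of this fit, while a smaller one lay within it. The interval is not a limit of detection, and with the replicate block the SE of DPF2 was 0.105. Without Control sample 3 its log2 fold change was -0.01, so the sign of this value was not stable. DPF2 shares 13.5% of its exon bases with an annotated gene of the opposite strand, and unstranded reads of the overlap cannot be told apart.

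DPF1, the paralog most associated with postmitotic neurons, had 531.1, 688.3 and 583.0 in Control and 346.7, 593.1 and 514.9 in BRG1 samples. It was lower within each replicate number, with folds of 0.653, 0.862 and 0.883, but the groups overlapped and the log2 fold change of -0.31 had an SE of 0.25. PHF10, the PBAF subunit, had 1983, 2017 and 1952 in Control and 1862, 1744 and 1746 in BRG1 samples. The groups did not overlap, although the log2 fold change was -0.15 (SE 0.12; 95% interval of the fold 0.769 to 1.05). PHF10 shares 10.5% of its exon bases with other genes, among them C6orf120 on the opposite strand, which had a log2 fold change of -0.26, and unstranded reads of the overlap cannot be told apart.

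**Figure D2:**
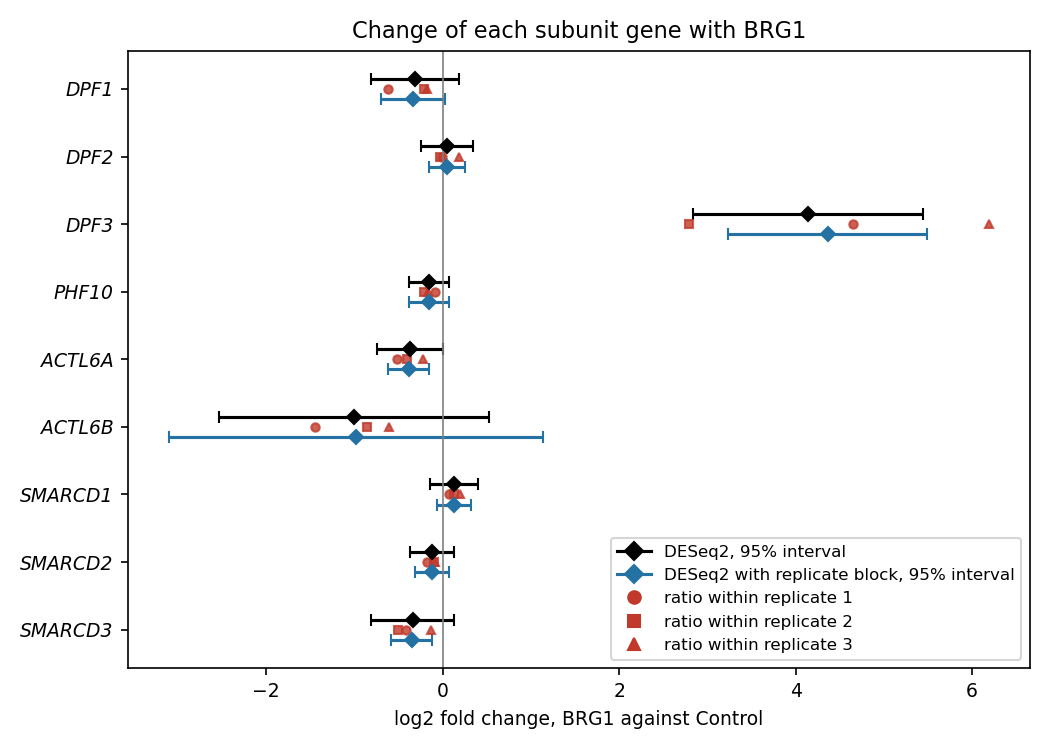
Log2 fold change of BRG1 against Control (horizontal axis) for each of the 9 subunit genes, with DESeq2 estimates and 95% intervals without (black) and with the replicate number as a block (blue), and the ratio within each replicate number (red). DPF3 stands at 4.14 and 4.36, the estimates of the other genes lie between -1.0 and 0.13, and the intervals of ACTL6A and SMARCD3 narrow with the block.

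ACTL6A and ACTL6B encode actin-related subunits. ACTL6A is the form of proliferating and progenitor cells, and its normalised count was 2372, 2659 and 2824 in Control and 1652, 2017 and 2418 in BRG1 samples. It was lower within each replicate number, with folds of 0.697, 0.758 and 0.856, while the highest BRG1 sample exceeded the lowest Control sample. The log2 fold change was -0.37 (SE 0.19), and with the replicate block it was -0.38 with an SE of 0.12. ACTL6A was called lower in 3 of the 14 fits, those being both fits with the block and the DESeq2 fit without BRG1 sample 3.

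ACTL6B, the form of neurons, was near the limit of detection in these cells. Its normalised count was 15.84, 10.55 and 9.09 in Control and 5.80, 5.82 and 5.97 in BRG1 samples. The groups did not overlap, with all BRG1 samples lower, but the counts were too few to give a narrow estimate, since the 95% interval of the fold ran from 0.172 to 1.44 around a log2 fold change of -1.0. ACTL6B did not pass the low-count filter of edgeR.

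The SMARCD genes encode paralogous subunits that link the complex to transcription factors and nuclear receptors. SMARCD3, the form enriched in heart and muscle, had 3525, 5021 and 4767 in Control and 2644, 3541 and 4363 in BRG1 samples. It was lower within each replicate number (folds of 0.750, 0.705 and 0.915), and the groups overlapped. Its log2 fold change was -0.34 (SE 0.24), or -0.35 with an SE of 0.12 under the replicate block, and it was called lower only in the 2 fits with the block among the 14. SMARCD3 shares 28.4% of its exon bases with genes of the opposite strand, CHPF2 among them. CHPF2, which encodes a chondroitin polymerizing factor, differed by 0.21 on the log2 scale without being called, and the part that these shared bases play in the SMARCD3 value was not tested.

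SMARCD1, a broadly expressed member, had 3954, 4375 and 3704 in Control and 4166, 4754 and 4276 in BRG1 samples. It was higher within each replicate number (1.05, 1.09 and 1.15), with overlapping groups and a log2 fold change of 0.13 (SE 0.14). SMARCD2, a member known for its role in granulocyte differentiation, had 3986, 3933 and 4297 in Control and 3528, 3673 and 4046 in BRG1 samples. It was lower within each number (0.885, 0.934 and 0.942), with overlapping groups and a log2 fold change of -0.12 (SE 0.13). Over the 9 genes, 6 were lower and 2 were higher within all 3 replicate numbers, beside 27.4% and 27.3% of all genes tested, and DPF2 was the remaining gene. The median log2 fold change was -0.15 over the 9 genes and -0.01 over all genes tested.

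Levels of different genes were compared per kilobase of annotated exon. In Control samples the most abundant subunit genes were SMARCD3 (902 ± 163 normalised counts per kb, SD, n = 3), SMARCD1 (818 ± 69.2), ACTL6A (714 ± 62.4) and SMARCD2 (690 ± 33.4). Each of these neighbours in the order overlapped the next in its range over samples. DPF2 followed at 485 ± 53.8, PHF10 at 332 ± 5.44 and DPF1 at 125 ± 16.7, each without overlap with its neighbours on this length. The order of the abundant genes depended on the length. Per kb of the MANE transcript, SMARCD2 (1650) ranked above ACTL6A (1410) and SMARCD1 (1220), and DPF2 (1100 to 1350 over Control samples) overlapped SMARCD1 (1130 to 1330). ACTL6B at 4.98 ± 1.49 and DPF3 at 0.794 ± 0.627 came last. DPF3 was therefore the lowest of the 9 genes by its Control mean, with each of 3 lengths tried. For DPF3 the longest and the MANE transcript have the same length (11413 bases), and its other transcripts were not tried. Per kb of the union of exons it lay between percentiles 18.1 and 27.2 of 18214 genes ranked in each sample.

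In BRG1 samples DPF3 stood at 13.6 ± 7.37 counts per kb and ACTL6B at 2.47 ± 0.0393, without overlap, so the order of the lowest genes was exchanged. DPF3 then lay between percentiles 34.3 and 39.1 and remained below DPF1, which had 101 ± 26.2 counts per kb. Even in BRG1 samples DPF3 was a minor member of its family on the lengths tried. Its share of the summed level per kb of DPF1, DPF2, DPF3 and PHF10 was 0.0975%, 0.133% and 0.0142% in Control samples and 2.56%, 0.995% and 1.00% in BRG1 samples. The mean over BRG1 samples was 1.52%, and 1.00% without BRG1 sample 1. Per kb of the MANE transcript the shares were 0.0607%, 0.0837% and 0.00883% in Control and 1.6%, 0.627% and 0.631% in BRG1 samples, so the size of the share depends on the length used while the order of the groups was kept. The mean shares of the other members were 51.4 ± 1.6% and 54.8 ± 1.4% for DPF2, 35.3 ± 2.2% and 32.7 ± 2.9% for PHF10, and 13.3 ± 0.9% and 11.0 ± 2.4% for DPF1 in Control and BRG1 samples.

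At the ACTL6 position ACTL6B made up 0.38% to 1.02% of the summed level over all samples, and ACTL6A the rest. At the SMARCD position the share of SMARCD3 was 32.6%, 39.6% and 39.5% in Control and 27.1%, 31.1% and 36.3% in BRG1 samples, and that of SMARCD1 was 36.7%, 34.6% and 30.8% against 42.8%, 41.9% and 35.7%. Both shares overlapped between groups, while within each of the 3 replicate numbers the SMARCD3 share was lower and the SMARCD1 share higher in the BRG1 sample. The share of SMARCD2 was 28.8 ± 2.6% and 28.4 ± 1.6%. The summed level of the DPF/PHF10 genes per kb was 942 ± 74.5 in Control and 914 ± 46.6 in BRG1 samples, that of the ACTL6 genes 719 ± 60.9 and 556 ± 104, and that of the SMARCD genes 2411 ± 194 and 2248 ± 237. These shares are of transcripts, and the make-up of the protein complexes was not measured here.

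**Figure D3:**
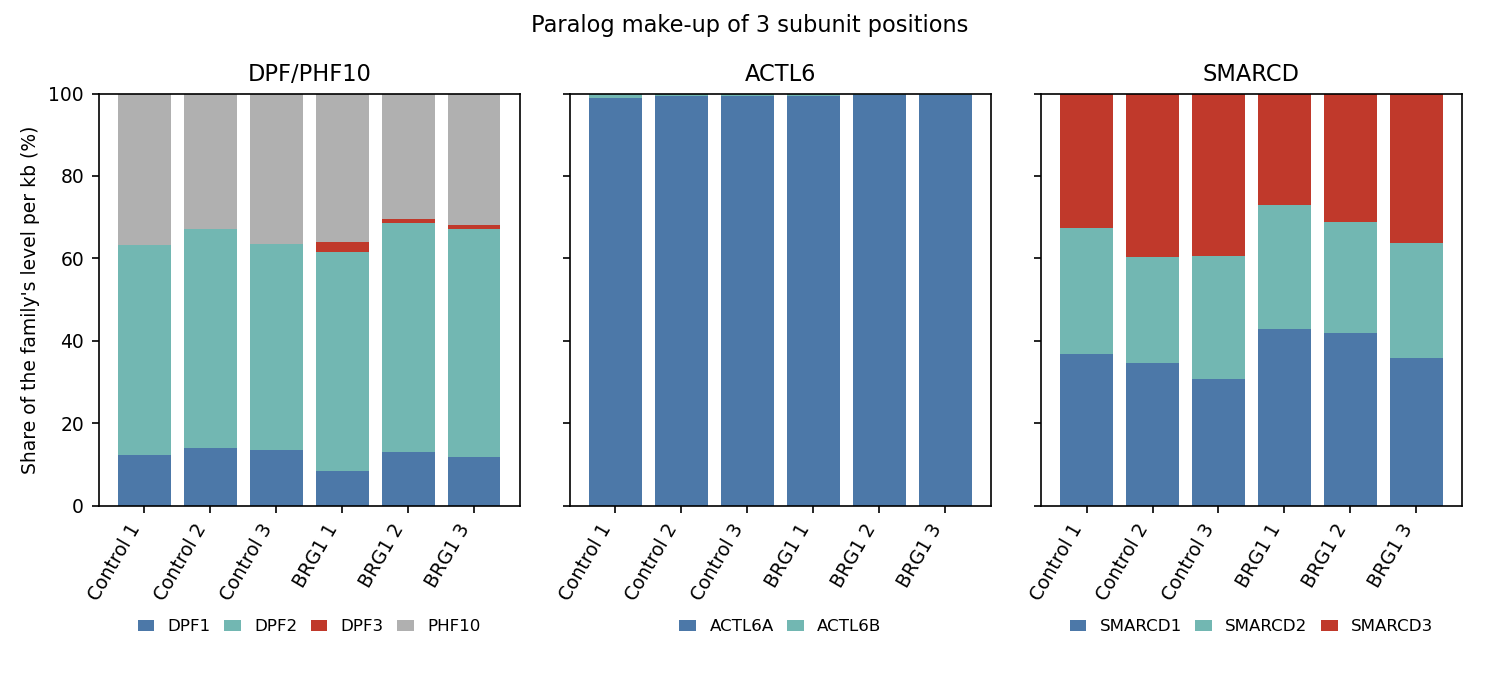
Share of each paralog (vertical axis, percent) in the summed level per kb of exon of its family, for each of the 6 samples (horizontal axis) and 3 subunit positions. DPF3 (red, left) forms a thin band of 0.995% to 2.56% in BRG1 samples and is too small to see in Control samples, ACTL6A fills its position, and the SMARCD3 and SMARCD1 shares overlap between groups but differ in 1 direction within each replicate number.

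The remaining SWI/SNF genes gave the setting for these values. Of 21 listed subunits outside the exchanged families, from the large ARID proteins to beta-actin, 20 had an adjusted p. DESeq2 called none in either direction, beside 11% of all genes called higher and 1.84% lower. Unadjusted p-values under 0.05 were found for 0 higher and 2 lower genes. The edgeR test gave 0 calls, beside 9.57% and 1.02% of all genes, with the same 0 and 2 genes before adjustment. Of the 21, 7 had a log2 fold change above 0 and 14 below, and the median over the 20 was -0.09, or -0.03 without Control sample 2. With the replicate block in DESeq2, 0 were called higher and 4 lower, beside 13.4% and 6.61% of all genes. SS18L1, the neuronal paralog of SS18, had 1632, 2311 and 1696 in Control and 1309, 1792 and 1257 in BRG1 samples (adjusted p with the block 0.00989). SMARCC1, a scaffold of the core, had 9880, 8759 and 8960 against 7637, 7567 and 7496, without overlap (adjusted p with the block 0.0163, and 0.0963 without it). BCL7C and ARID2, an accessory subunit and the ARID subunit of PBAF, had DESeq2 adjusted p with the block of 0.0344 and 0.0399. Like SMARCC1, BCL7C and SMARCE1 were lower in every BRG1 sample than in every Control sample, as were 9.92% of all genes. With edgeR and the block, SS18L1 and SMARCC1 were called (adjusted p 0.0181 and 0.0464), whereas BCL7C and ARID2 were not (0.0707 and 0.0569). Without BRG1 sample 3, BCL7C was called by DESeq2 with no block (adjusted p = 0.0191).

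Genes of heart and skeletal muscle, where DPF3 and SMARCD3 are known to act, were examined next. This list, like the others here, was chosen with earlier results of these data known. Of 24 listed genes 16 had an adjusted p, and DESeq2 called 4 higher and none lower, beside 11% and 1.84% of all genes. The edgeR test, which kept 13 of the 24, called the same 4 higher and none lower, beside 9.57% and 1.02%. TNNT2, cardiac troponin T, rose from 2.44, 4.69 and 4.54 in Control to 1813, 799.9 and 388.1 in BRG1 samples (log2 fold change 7.98, DESeq2 adjusted p = 4.59e-32). TNNC1, the troponin C of slow and cardiac muscle, rose from 76.8, 109.1 and 72.7 to 1510, 994.3 and 582.1 (log2 fold change 3.58, DESeq2 adjusted p = 5.61e-21). DES, encoding the intermediate filament desmin, had no count in any Control sample and 66.7, 34.1 and 26.9 in BRG1 samples, which is at least 13.5-fold higher when Control is set to 3 counts per library. MYL7, an atrial myosin light chain, was at least 13.6-fold higher on the same floor, with 78.3, 39.9 and 10.4 in BRG1 samples. All 4 were called in each of the 6 fits that leave out 1 sample. With the filter of 10 counts in 3 samples 3 were called, since MYL7 did not pass it.

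No other muscle gene was called in the main comparison. RYR2, the cardiac calcium release channel, was called only with the block in DESeq2 (adjusted p = 0.0463) or without Control sample 3 (DESeq2 adjusted p = 0.00904), and it had 6.09, 1.17 and 27.3 in Control and 69.6, 15.8 and 40.3 in BRG1 samples. NKX2-5, a cardiac transcription factor, was abundant in both groups, with 5367, 6381 and 4465 in Control and 3981, 5619 and 4113 in BRG1 samples, and was not called. TBX5 had no count in any sample. In Control 10 of the 24 genes held 3 counts or fewer in every sample, and the myosin heavy chains of heart (MYH6 and MYH7) and the myogenic factor MYOD1 were at or under that floor in both groups. The median log2 fold change over the 16 genes was 0.39, beside -0.01 for all genes, but it moved with single libraries, being 0.05 without Control sample 3, 0.25 without BRG1 sample 2 and 0.76 without Control sample 2.

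**Figure D4:**
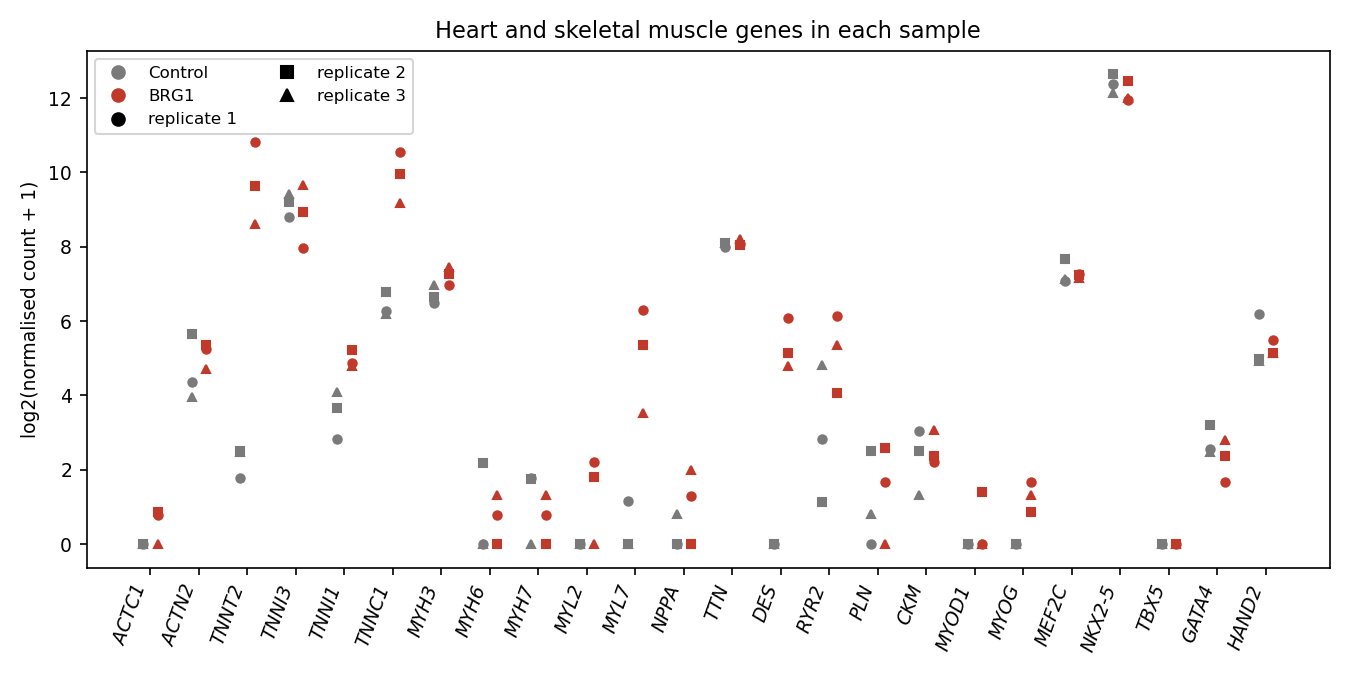
Log2 of normalised count + 1 (vertical axis) for the 24 listed heart and skeletal muscle genes in Control (grey) and BRG1 (red) samples, with marker shape giving the replicate number. TNNT2, TNNC1, MYL7 and DES separate the groups by the widest margins, NKX2-5 is high in both groups and TBX5 is at 0.

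Neuronal genes were examined for the same reason, since DPF1, ACTL6B and SS18L1 are subunits of neurons. Of 20 listed genes 18 had an adjusted p, of which DESeq2 called 2 higher and 1 lower, beside 11% and 1.84% of all genes, so the share called higher was that of the background. MAP2, a dendritic microtubule protein, rose from 441.0, 343.6 and 280.1 in Control to 924.1, 864.7 and 595.5 in BRG1 samples (log2 fold change 1.17, DESeq2 adjusted p = 1.17e-04, edgeR 0.0198). TUBB3, a neuronal tubulin, rose from 439.8, 406.9 and 413.4 to 1164, 716.0 and 509.0 (DESeq2 adjusted p = 0.0233), but edgeR did not call it (0.101). SYP, the synaptic vesicle protein synaptophysin, fell from 3136, 2268 and 3057 to 1926, 1641 and 2076 (log2 fold change -0.59, DESeq2 adjusted p = 0.0216, edgeR 0.0582). Leaving out Control sample 1, 2 or 3 or BRG1 sample 1 or 2 ended the call of TUBB3, and leaving out Control sample 1 or 3 or BRG1 sample 1 or 2 ended that of SYP (highest DESeq2 adjusted p 0.158 and 0.189). With the replicate block both were called, TUBB3 with adjusted p of 0.00311 in DESeq2 and 0.0279 in edgeR, and SYP with 6.62e-06 and 0.00363. With the block in DESeq2, STMN2 was also lower (adjusted p = 0.028), and edgeR with the block did not call it (0.0711). The median log2 fold change over the 18 genes was -0.23, but it was 0.02 without Control sample 3 and -0.05 without BRG1 sample 1, so its sign rested on single libraries.

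Of the regulators tied to the neuronal exchange of subunits, REST and its corepressor RCOR1 silence neuronal genes, and PTBP1 and PTBP2 control neuronal splicing. None of the 4 was called by DESeq2 or by edgeR, and none had an unadjusted p under 0.05 in either. REST had 4228, 4230 and 2808 in Control and 2749, 4352 and 2437 in BRG1 samples, so the spread within each group was wider than the difference between means. PTBP2 was lower in every BRG1 sample, by -0.31 on the log2 scale (DESeq2 adjusted p = 0.323).

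The pattern of DPF3 over the 6 samples was set beside that of the 14219 genes whose normalised count averaged 10 or more. Likeness was the root mean square difference of log2(normalised count + 1), each gene being centred on its own Control mean. The 5 most similar genes were GBP4 (0.33), AOC1 (0.34), TENM4 (0.35), HRASLS2 (0.38) and TMEM92 (0.43). GBP4 encodes an interferon-inducible guanylate binding protein, AOC1 a diamine oxidase and TENM4 a teneurin of the cell surface. GBP4 had 19.5, 23.4 and 4.54 in Control and 393.2, 279.9 and 232.8 in BRG1 samples. Like DPF3, all 5 genes were lowest in Control sample 3 and highest in BRG1 sample 1, but they were picked for likeness over these same values. HRASLS2 and TMEM92 held few counts in every Control sample and were at least 18.9-fold and 15.6-fold higher with Control set to 3 counts per library. Of the 7 other subunit genes compared, the closest was SMARCD1 at rank 4188, while ACTL6B was under the minimum count and was not compared. SMARCA4 ranked 482. This likeness uses the same samples as the choice of DPF3 and is a description.

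**Figure D5:**
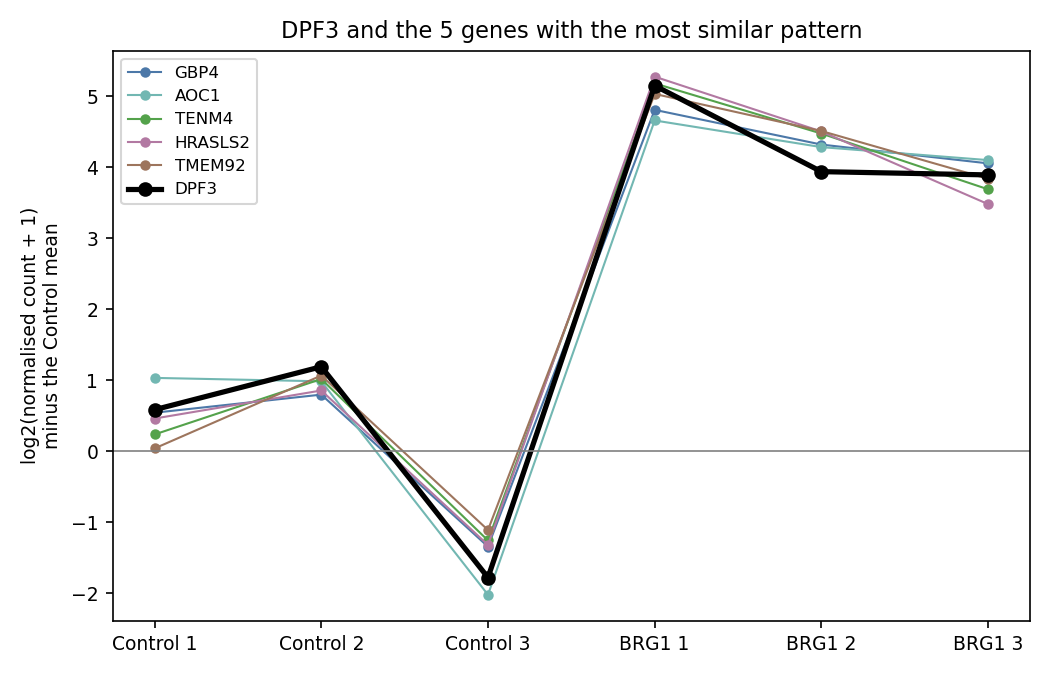
Log2 of normalised count + 1 minus the Control mean (vertical axis) in each of the 6 samples for DPF3 (black) and the 5 genes with the most similar pattern. Lines only join the points of 1 gene, all 6 genes are lowest in Control sample 3 and highest in BRG1 sample 1, and all lie above 3 in every BRG1 sample.

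Among BRG1 samples, sample 1 had the highest normalised count of both SMARCA4 and DPF3, at 108650 and 397.5. Samples 2 and 3 were alike in both, with 79075 and 171.1 and with 78589 and 165.7. With 3 samples no relation was tested. Some markers of other cell types differed between the groups as well. Summed normalised counts of the endothelial markers PECAM1, CDH5 and VWF were 25.6 to 91.6 in Control and 3350 to 3936 in BRG1 samples, with VWF and CDH5 called higher by DESeq2. Most of the BRG1 sum was VWF, at 3657, 3224 and 3613 in BRG1 samples 1 to 3. PECAM1 overlapped between groups, with 0 to 23.5 in Control and 7.25 to 37.3 in BRG1 samples, and was not called. Those of the epithelial markers EPCAM, KRT8 and KRT18 were 26.5 to 63.4 and 472 to 1611, with KRT8 and KRT18 called higher and EPCAM at 0 to 1.17. Of the 6 granulosa markers, the type under which this line was long classed, 1 (CYP19A1) was called higher, FOXL2 and AMHR2 were at or near 0 in every sample, and the sum was 291 to 470 against 638 to 920. CYP19A1 itself was at 15.8 to 31.8 in Control and 251 to 455 in BRG1 samples, while INHA and AMH were not called. Sums of the 3 fibroblast markers (4099 to 7590 against 3411 to 8118, with PDGFRA called higher) and of the 3 leukocyte markers (1849 to 2858 against 2407 to 3913) overlapped. No leukocyte marker was called without the block, but with it CD68 was called higher (DESeq2 adjusted p = 0.00132, edgeR 0.0343), and the leukocyte sum was higher in the BRG1 sample of each replicate number. PTPRC was at 336 to 722 over all samples, and CD3E at 0 to 0.831. The part of such markers in the DPF3 result was not tested, and in bulk RNA a larger number of cells with DPF3 and more DPF3 RNA per cell cannot be told apart.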

How the data were processed

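Gene expression was measured by RNA-seq in 3 Control and 3 BRG1 samples of COV434 cells. Per the submitters' notes and the study's methods, the authors checked reads with FastQC (0.11.5), aligned them with STAR (2.5.3a) to GENCODE v24 and quantified transcripts with Salmon (0.8.2), and tximport summed these to genes. The deposited values are estimated counts, which the authors derived by scaling TPM to transcript length and library size (lengthScaledTPM), so differences in transcript length between samples are removed, splice forms of DPF3 and the other genes are merged, and ambiguous reads are split between genes by a model. Libraries keep no strand. No column lacked a sample (0).

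Estimated counts were rounded to whole numbers, and 18096 of 19899 genes had a count. BRG1 was compared with Control by the Wald test of DESeq2 (1.42.0, R 4.3.3; the authors used DESeq2 1.22.2) with median-ratio size factors, no covariate and Benjamini-Hochberg adjustment over all genes tested. A gene was called at an adjusted p under 0.05. Alternatives were edgeR's quasi-likelihood test (4.0.16), limma-voom (3.58.1), TMM factors, a filter of 10 counts in 3 samples, no independent filtering, leaving out each sample, and the replicate number as a block. Deviations from group means correlated at 0.341, 0.298 and 0.459 between samples of the same number over 14220 genes, so the numbers were taken to pair the samples. Between unlike numbers the correlations were 0.0694 or less. Deviations within a group cancel out, so these low values follow in part from the others and are no separate evidence. The pairing comes from the data and the numbers, not from a stated shared day. The fits to all samples were tested before use on simulated data that held no replicate effect, and the fits that leave out a sample were not.

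Lengths and coordinates came from GENCODE 44 on GRCh38, the build of the authors' release, and 91.5% of genes matched by symbol. Promoter windows came from RefSeq. Intervals cover counting error only where so named. The labels call the samples biological replicates without saying more, so the spread may be partly technical. The named genes were the 9 subunit genes, SMARCA4, SMARCA2, list genes that were called (at most 4 a direction), other SWI/SNF genes called with the block, and the 5 genes most like DPF3; NKX2-5, TBX5, MYH6, MYH7, MYOD1, RYR2, STMN2, REST and PTBP2, and the neighbours of subunit genes, were named after their values were seen. SMARCE1 was likewise named after its values were seen. The subunit genes and all lists were chosen with earlier results of these data known.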

Additional observations from a re-analysis of the deposited data

How the results depend on the processing

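Over 27 results and 299 alternative values, 263 stayed within 1 SD of the samples or, for counts of calls, within 1.5 times, and 36 moved. No called value changed sign, while DPF2, which was not called, went from 0.05 to -0.01 on the log2 scale without Control sample 3. DPF3 was called higher in every alternative, all of which reuse the contrast by which it was chosen. The number of genes called lower, 294 in the main comparison, was 1035 with the replicate block in DESeq2, 146 with edgeR, 809 with edgeR and the block, 169 with limma-voom and 116 to 596 when 1 sample was left out. Subunit genes called lower, 0 in the main comparison, were 2 with the block in DESeq2 and in edgeR and 0 to 1 on leaving out a sample. Other SWI/SNF subunits called lower went from 0 to 4 with the block in DESeq2, 2 with the block in edgeR and 0 to 1 on leaving out a sample. Neuronal genes called higher went from 2 to 1 with edgeR, 1 with limma-voom and 1 to 2 on leaving out a sample, and those called lower from 1 to 2 with the block in DESeq2, 0 with edgeR, 0 with limma-voom and 0 to 1 on leaving out a sample. The pairing of replicate numbers also added RYR2 to the muscle genes and CD68 to the cell type markers called higher in DESeq2, and changed no other call among the subunit genes, list genes and markers in DESeq2.

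Paralog shares depend on the length used. DPF3 made up 0.0817% of its family in Control and 1.52% in BRG1 samples per union of exons, 0.0744% and 1.39% with the longest transcript, and 0.0511% and 0.952% with the MANE transcript. ACTL6B made up 0.454% of its family in BRG1 samples per union of exons, 0.367% with the longest transcript and 0.358% with the MANE transcript, a choice made after seeing the data. SMARCD3 made up 37.2%, 43.7% and 44.5% in Control and 31.5%, 37.6% and 38.8% in BRG1 samples. Apart from these length choices and the pairing itself, the cause of these shifts was not tested. Depth limits DPF3 in Control samples (3 to 21 counts) and ACTL6B in both groups, so their folds have wide intervals, and splice forms could not be separated.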
